A study of Rattus norvegicus with 15 samples.

Results

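The respiratory chain genes described here are the rat genes whose symbol begins with Nduf, Uqcr, Sdh followed by a, b, c or d, Atp5, or Cox followed by a digit from 4 to 8. RefSeq's rat gene table holds 234 such genes, of which 112 are pseudogenes or noncoding. A probe on the array matched 81 of the 234, and 76 of these 81 had a probe that the scanner marked well above background in 5 or more of the 15 tumours. The 76 were drawn from 8381 named genes measured in all. They comprise 69 subunits (30 of complex I, 4 of complex II, 7 of complex III, 13 of complex IV and 15 of complex V) and 7 assembly factors, which the symbols Ndufaf and Sdhaf bring in and which are given apart. Of the 76, 72 were well above background on all 15 arrays.

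The respiratory chain sits in the inner mitochondrial membrane. Complex I (NADH dehydrogenase) and complex II (succinate dehydrogenase) pass electrons to ubiquinone, complex III (cytochrome c reductase) passes them on to cytochrome c, and complex IV (cytochrome c oxidase) hands them to oxygen. Complexes I, III and IV pump protons as they do so, and complex V (ATP synthase) uses the returning protons to make ATP. The genes measured are all nuclear, and their proteins are imported into the mitochondrion and joined there with subunits encoded by mitochondrial DNA. In epithelial tumours the chain supplies ATP and also takes up electrons from the making of nucleotide precursors, so cancer cells commonly keep it next to high glycolysis.

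RNA came from mammary tumours of tubular or papillary histology in female Sprague-Dawley rats aged 180 days. Mothers (16 per diet) ate chow with 3 mg/kg zinc (deficient), 35 mg/kg (adequate, named the negative control in the labels) or 180 mg/kg (supplemented) from gestation day 10 to weaning at day 21, and their daughters kept the same chow until day 51. On day 51 every rat, controls included, received 1 oral dose of 50 mg/kg of DMBA (dimethylbenzanthracene, a mammary carcinogen in this strain), and all ate the adequate chow from then on, so the diets differed only in early life. Each diet is represented by 5 tumours, with 1 one-colour Agilent array each. The arrays lay on 4 slides, and each slide held tumours of all 3 diets. A label field speaks instead of mammary gland at day 21, and the tumour and age fields were followed. The labels do not say that tumours of a diet came from different rats or litters, so a p-value measures the spread between these tumours only.

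The array's brightness sets its precision, and it differed between tumours. An array's processed signal had a 75th percentile of 50.7 to 177 intensity units, and 13854 to 24009 of 43379 spots were well above background. Deficient 1, deficient 4 and adequate 2 were the 3 dimmest arrays, at 50.7, 52.4 and 55.9. No spot was saturated. A level below is log2 of the processed signal minus log2 of that array's 75th percentile, so 0 is the 75th percentile itself. Levels of different genes come from different probes and are not set against each other. Epithelial markers (keratins, claudins and adhesion genes, 7 of 8 listed genes measured) had a summed level, relative to the 75th percentile, of 405 to 529 in deficient, 351 to 549 in adequate and 333 to 526 in supplemented tumours. In whole tumour tissue, fewer cells of a type and less RNA per cell cannot be told apart.

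The genes of the chain varied little between tumours. The median SD of a member over the 15 tumours was 0.26 on the log2 scale, against 0.36 over all named genes and 0.30 over the named genes that were well above background on every array. Only Cox6b2, of the 76 (1.32%), had an SD above 0.5, as did 26.8% of all named genes. Of the named genes well above background on every array, 13.6% did. Low spread was not particular to the chain. The median SD was 0.23 over mitochondrial ribosomal protein genes and 0.25 over pyruvate dehydrogenase and citric acid cycle genes, but 0.43 over glycolysis and hypoxia genes. The array therefore measured diet differences of the chain's genes more finely than those of a typical tested probe. Tested probes include dim ones, and no interval for genes of similar brightness is given here. The median 95% confidence interval of a member's difference between 2 diets reached 0.38 to either side, or 1.30-fold, against 0.48, or 1.4-fold, over all tested probes.

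**Figure D1:**
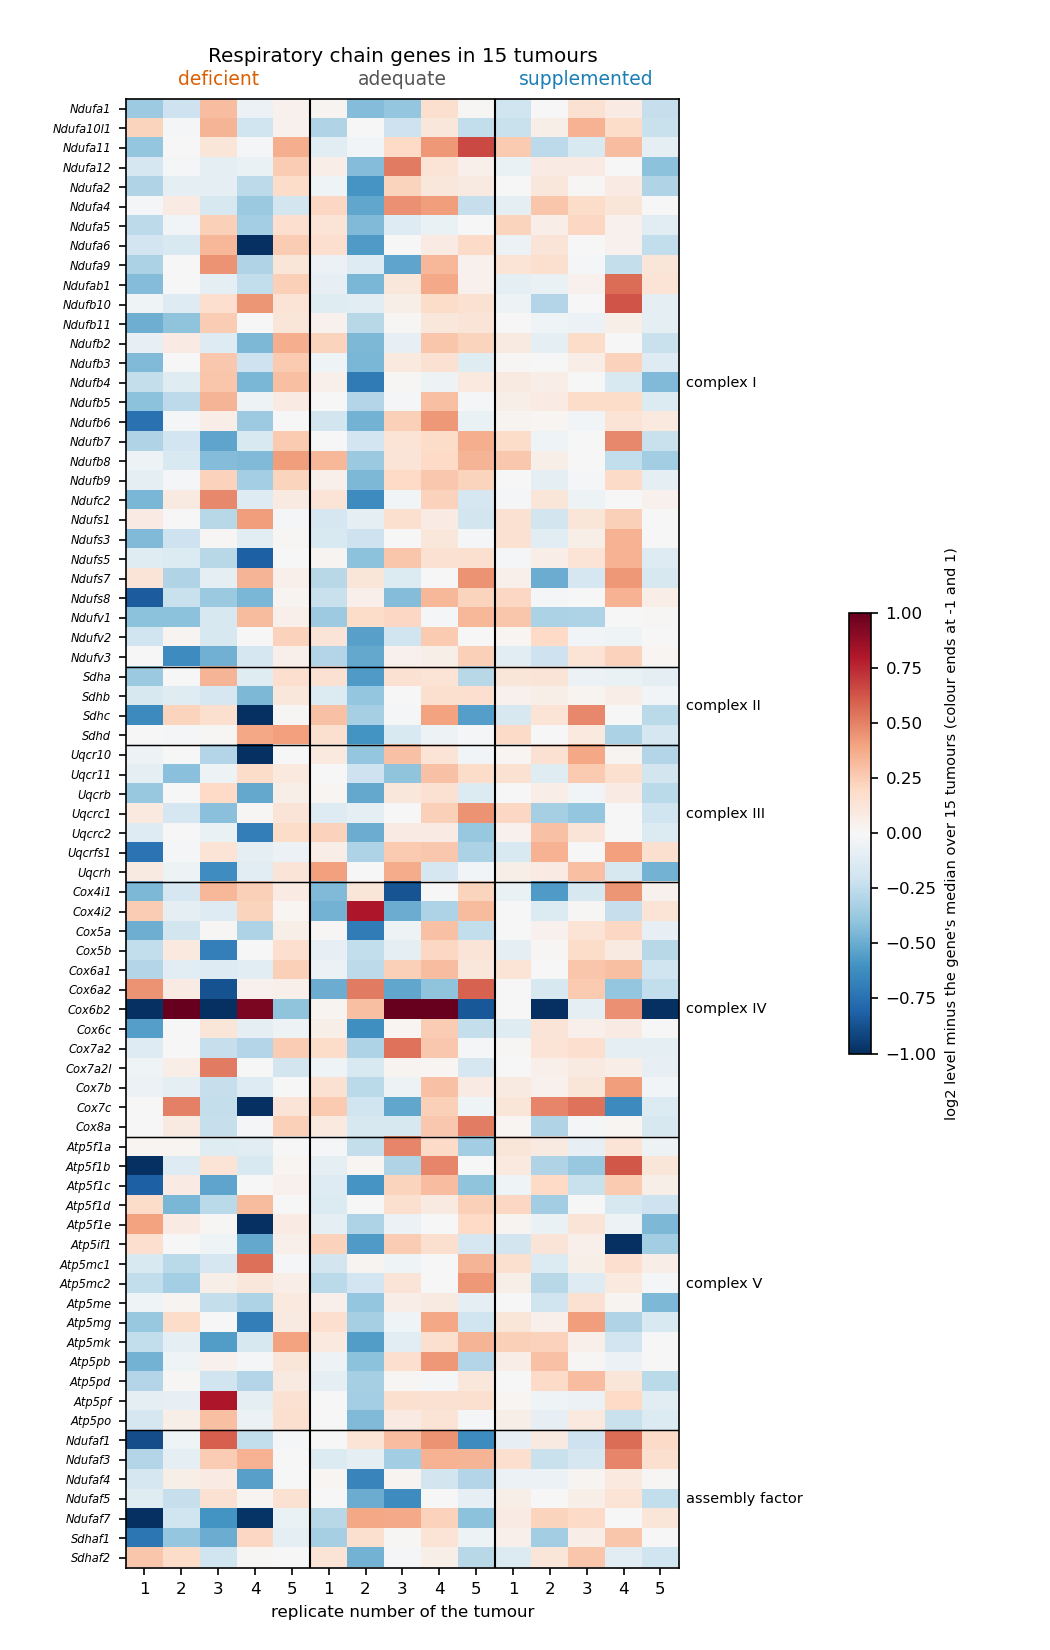
Each row is a respiratory chain gene (all but 1 of the 76) and each column a tumour, by diet and replicate number. Colour gives the log2 level minus that gene's median over the 15 tumours, and the scale ends at -1 and 1. Adequate 2 is blue in most rows (9 of 69 subunit genes above their own median), and adequate 4 and deficient 5 are red in most (56 and 57 of 69).

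Whole tumours stood high or low together. In the deficient tumours 1 to 5, the number of the 69 subunit genes above their own median was 11, 19, 30, 16 and 57. In the adequate tumours it was 33, 9, 39, 56 and 37, and in the supplemented tumours it was 41, 37, 41, 43 and 14. Each diet thus holds a tumour in which at most 14 of 69 subunit genes lay above their median. Single tumours depended on the normalization. Under 5 others (array median, quantile, normexp with the percentile, normexp with quantile, and the deposited values) the counts stayed low in deficient 1 (2 to 14), adequate 2 (1 to 14), deficient 4 (2 to 26) and supplemented 5 (2 to 24). They stayed high in deficient 5 (46 to 67) and adequate 4 (49 to 67). Deficient 2 kept 19 with the array median but had 38 to 57 under the other 4. With normexp and the percentile, supplemented 1, 3 and 4 had 11, 7 and 2. Among all named genes, the share above their own median stayed between 37.3% and 54.7% in every tumour. The chain was not alone in this. Mitochondrial ribosomal protein genes had median deviations from their own medians of -0.14, -0.10 and -0.34 in deficient 1, deficient 4 and adequate 2. The subunits had -0.19, -0.12 and -0.33. In deficient 5, adequate 4 and supplemented 5 the ribosomal genes had 0.12, 0.11 and -0.13, against the subunits' 0.10, 0.16 and -0.13. In deficient 3 they had 0.02 against -0.09, and in supplemented 2 -0.01 against 0.02. The mean level over the 69 subunits was 4.29 ± 0.13 (SD, n = 5) in deficient, 4.36 ± 0.17 (SD, n = 5) in adequate and 4.37 ± 0.09 (SD, n = 5) in supplemented tumours, with overlapping ranges of 4.14 to 4.48, 4.09 to 4.55 and 4.22 to 4.45.

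The low and high ends fell in few tumours, in part as they did for all named genes. Adequate 2 had the lowest value of 24 of the 76 genes (31.6%), among them Atp5po, Sdhd, Cox5a and Ndufb4, while it had the lowest value of 12.3% of all named genes. Deficient 1 was lowest for 14 genes (18.4%, against 15.3% of all named genes) and deficient 4 for 11 (14.5%, against 10.2%). The highest values lay most often in deficient 3, with 14 genes (18.4%, against 16.3% of all named genes). Next came supplemented 4 with 13 (17.1%, against 9.59%) and adequate 4 with 10 (13.2%, against 5.52%). Of the named genes well above background on every array, 17.9%, 11.2% and 6.52% were highest in these tumours, in that order.

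**Figure D2:**
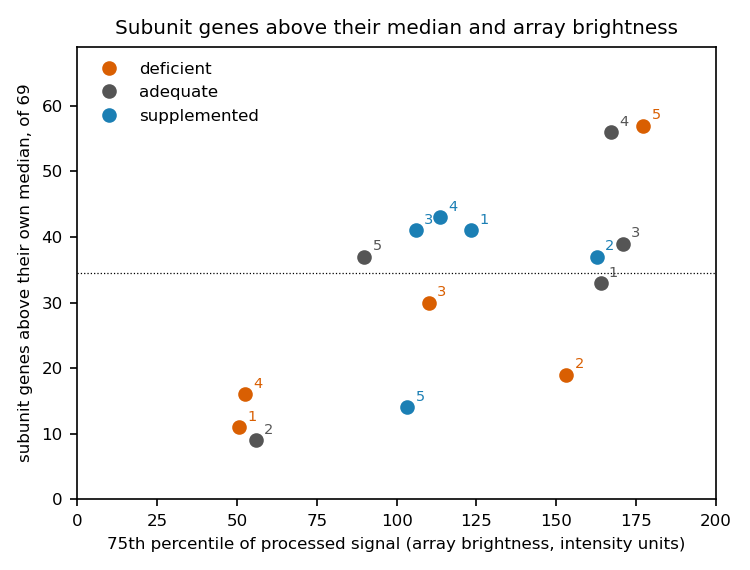
The horizontal axis is the 75th percentile of the array's processed signal, in intensity units, and the vertical axis is the number of the 69 subunit genes above their own median. Points are tumours, coloured by diet and numbered by replicate, and the dotted line marks the middle of the scale. The 3 dimmest arrays have 9 to 16 genes above, and supplemented 5 has 14 at a brightness of 103.

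The 3 dimmest arrays were all low, with 11, 16 and 9 of 69 subunit genes above their medians. The 2 highest counts, 57 and 56, were on arrays with percentiles of 177 and 167. With percentile scaling other bright arrays lay near the middle: adequate 1 (164 units) had 33, supplemented 2 (163 units) 37 and adequate 3 (171 units) 39. In the same order they had 59, 56 and 43 with the array median, and 59, 61 and 61 with normexp and the percentile. Adequate 5, at 89.9 units, also had 37, but 13 with the array median. Supplemented 5 (14 genes, 103 units) was low without being dim. Deficient 2 (19 genes, 153 units) was low only with percentile or median scaling. The part of brightness in the members' differences was not tested beyond the fits with it as a covariate and without the 3 dimmest arrays, given beside the comparisons.

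Promoters of the chain's genes are known for sites of the nuclear respiratory factors NRF1 and GABP (an ETS factor) and of YY1, which regulate nuclear genes of mitochondrial proteins. In RefSeq's rat promoters (assembly GRCr8, 250 bases before to 50 after the start), 67 of the 76 members were matched. The NRF1 letters CGCATGCG, which read the same on both strands, stood in 9 of 67 (13.4%), against 425 of 19005 protein-coding promoters (2.24%). The ETS letters CCGGAAG, on either strand, stood in 22 of 67 (32.8%), against 2137 of 19005 (11.2%). The YY1 letters AAGATGGCG, on either strand, stood in 7 of 67 (10.4%), against 435 (2.29%). At least 1 of these 3 stood in 31 of 67 (46.3%), against 2777 of 19005 (14.6%) overall and 32 of 63 promoters of mitochondrial ribosomal proteins (50.8%). TATAAA, on either strand, stood in 4 of 67 (5.97%), against 2490 (13.1%). An ETS match can share its last letters with a YY1 match, and each was counted. A match describes letters and is not evidence of binding.

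The 90 bases before the start are shown for 8 members, 7 that the results describe and the c-ring gene Atp5mc2 for its NRF1 match. They are 3 ATP synthase genes, 1 cytochrome oxidase gene, 2 complex I subunits and 2 complex I assembly factors. Each is given 5′ to 3′ on the gene's own strand, in GRCr8 coordinates, with NRF1 and ETS matches in capitals.
Atp5me (chr14:1464770-1464859, plus strand): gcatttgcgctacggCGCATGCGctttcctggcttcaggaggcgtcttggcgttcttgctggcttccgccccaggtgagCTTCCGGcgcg
Atp5po (chr11:44657484-44657573, minus strand): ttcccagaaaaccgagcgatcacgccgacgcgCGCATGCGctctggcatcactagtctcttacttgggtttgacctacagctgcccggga
Atp5mc2 (chr7:135678219-135678308, minus strand): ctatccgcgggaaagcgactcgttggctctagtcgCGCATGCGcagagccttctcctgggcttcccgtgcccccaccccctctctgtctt
Cox8a (chr1:213833624-213833713, minus strand): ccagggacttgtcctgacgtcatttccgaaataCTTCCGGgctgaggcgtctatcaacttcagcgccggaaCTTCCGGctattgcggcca
Ndufs8 (chr1:210573699-210573788, minus strand): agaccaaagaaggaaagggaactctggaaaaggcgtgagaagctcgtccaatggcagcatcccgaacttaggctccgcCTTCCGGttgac
Ndufb7 (chr19:41477292-41477381, minus strand): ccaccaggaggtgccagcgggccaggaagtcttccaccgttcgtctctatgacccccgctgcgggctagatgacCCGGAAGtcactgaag
Ndufaf5 (chr3:147961522-147961611, plus strand): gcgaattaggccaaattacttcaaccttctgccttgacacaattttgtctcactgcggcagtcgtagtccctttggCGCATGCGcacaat
Ndufaf7 (chr6:21871966-21872055, minus strand): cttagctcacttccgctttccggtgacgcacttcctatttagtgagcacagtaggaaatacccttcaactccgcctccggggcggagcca
The 4 NRF1 matches begin at positions -75 to -14 relative to the gene's start, and Cox8a carries the ETS letters at 2 places, from -57 and from -19. The Ndufaf7 stretch holds none of the letters searched, which says only that they are not in this window.

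The first comparison asked how tumours after early zinc deficiency differed from tumours after the adequate diet. No respiratory chain gene passed the test (limma, Benjamini-Hochberg adjusted p under 0.05 over all tested probes), where 0 of 21014 probes did (0%). The lowest adjusted p of a member was 0.987 (limma). At an unadjusted p under 0.05, 1 of the 76 members (Ndufaf7, lower) stood among 821 probes (3.91%), of which 391 (1.86%) were higher and 430 (2.05%) lower. By sign, 22 members were higher and 54 lower in deficient tumours, with a median difference of -0.08 (-0.05 with slide as a block), while 44.2% of all named genes were higher and their median was -0.03. The members' median kept its sign under all 28 alternative fits (-0.19 to -0.02), but within slides it was -0.25, 0.28, -0.14 and 0.01, so the sign was not shared by the 4 slides. A within-slide value rests on few tumours. On slide 1 it sets deficient 1, a dim array, against adequate 1, and on slide 2 deficient 2 against adequate 2, a dim array. Slide 3 sets deficient 3 and deficient 4, the latter a dim array, against adequate 3. Slide 4 held none of the 3 dimmest arrays. With brightness as a covariate the split was 31 to 45, with a median of -0.02, and without the 3 dimmest arrays 26 to 50, with a median of -0.05. No member's 5 deficient values lay all above or all below its 5 adequate values, where 10 of 8381 named genes (0.119%) were higher without overlap and 29 (0.346%) lower.

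The second comparison set supplemented against adequate tumours. Again 0 members and 0 of 21014 probes (0%) passed the limma test, and the lowest adjusted p of a member was 1.00. Unadjusted, 0 members were under 0.05, where 415 probes (1.97%) were, 174 of them higher (0.828%) and 241 lower (1.15%). By sign 50 members were higher and 26 lower in supplemented tumours, with a median of 0.04 (0.06 with slide as a block) against -0.0043 over all named genes. Of all named genes, 49.2% were higher. Within slides the members' median was 0.04, 0.41, 0.06 and -0.21. The positive sign of the members' median rested on 1 tumour: without adequate 2, 34 members were higher and 42 lower, with a median of -0.02. It also turned with normexp background correction and 75th-percentile scaling (5 higher, 71 lower, median -0.56), and with array weights the split was 38 to 38. With brightness as a covariate it was 50 to 26 (median 0.04). Leaving out the 3 dimmest arrays takes only adequate 2 from these 2 diets. It therefore gives the same 34 to 42 (median -0.02) and is not a separate check. No member separated the 2 diets without overlap, where 17 of 8381 named genes (0.203%) were higher and 13 (0.155%) lower.

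The third comparison set the 2 zinc extremes against each other. No member and 0 of 21014 probes (0%) passed the limma test, with a lowest adjusted p of 0.661 for a member. Unadjusted, 2 of the 76 members, Ndufaf7 and Ndufs8, were under 0.05 and higher in supplemented tumours, where 1482 probes (7.05%) were under 0.05, 696 of them higher (3.31%) and 786 lower (3.74%). By sign 55 members were higher and 21 lower in supplemented tumours, with a median of 0.08 (0.11 with slide as a block) against 0.03 over all named genes. Of all named genes, 54.3% were higher. Within slides the members' median was 0.23, 0.09, 0.20 and -0.25, so here too the slides did not share the sign. With brightness as a covariate the split was 47 to 29, with a median of 0.04, and without the 3 dimmest arrays 40 to 36, with a median of 0.01. Normexp correction with 75th-percentile scaling turned it to 7 higher and 69 lower, with a median of -0.34. Of the 76 members, only Ndufaf7 separated the 2 diets without overlap, where 98 of 8381 named genes (1.17%) were higher and 27 (0.322%) lower. The 3 comparisons share their tumours, so their values are not independent of each other.

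Scaling each array to its median in place of its 75th percentile shifted all named genes, not the chain alone. The median of all named genes then became -0.12, 0.12 and 0.24 in the 3 comparisons, and the members' splits became 12 higher and 64 lower, 66 and 10, and 74 and 2. Both scalings subtract the same value from every gene of an array, so the members' place relative to all named genes could not change. By this design, 25, 51 and 48 of the 76 lay above the median of all named genes under both, which says nothing more about the members.

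**Figure D3:**
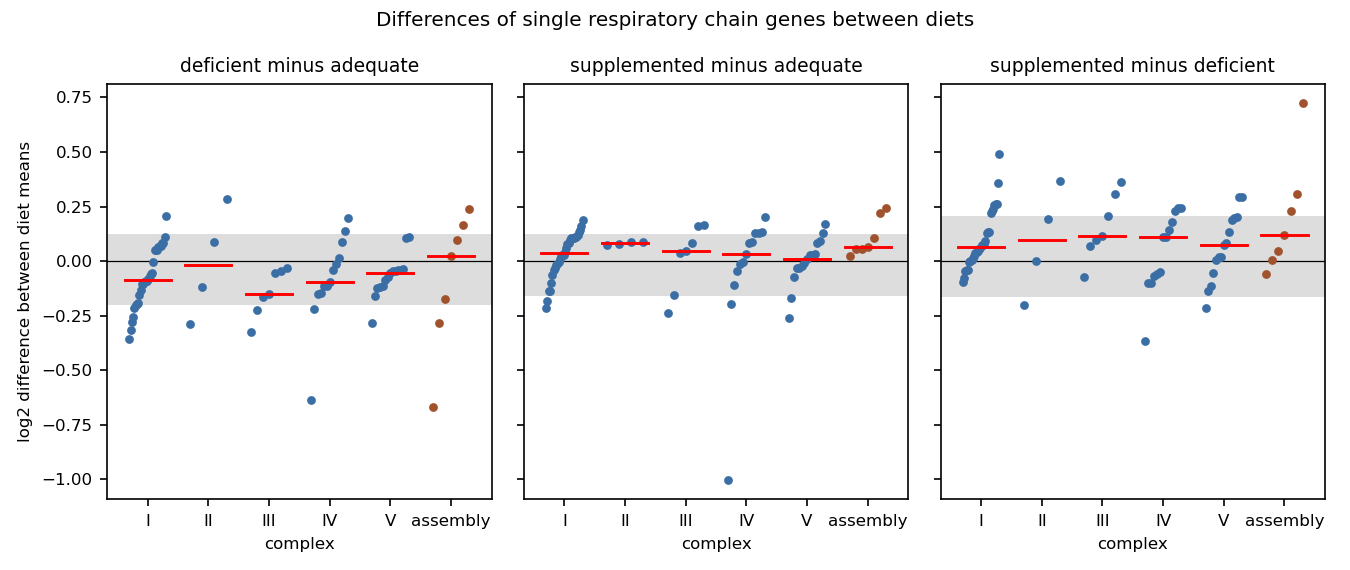
Each point is the difference between 2 diet means for 1 gene, on the log2 scale, by complex and for the assembly factors. Red lines are the medians of each complex, the grey band holds the central 50% of all named genes, and the 3 panels are the 3 comparisons. Most points lie within the band and none passed the test. The signs of the medians for supplemented minus adequate and for supplemented minus deficient turned under normexp correction with 75th-percentile scaling.

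Complex I takes electrons from NADH. Of its 30 measured subunits, 20 were lower in deficient than in adequate tumours and 23 were higher in supplemented than in deficient tumours, with medians of -0.09 and 0.07. The second median was -0.38 with normexp correction, and without the 3 dimmest arrays 13 of the 30 were higher. Ndufs8, a core subunit that holds iron-sulfur clusters of the electron path, had the lowest p of the complex in both. It read 1.11, 1.72, 1.57, 1.48 and 1.97 in the deficient tumours, 1.72, 1.99, 1.51, 2.27 and 2.16 in the adequate tumours and 2.15, 1.93, 1.94, 2.29 and 2.01 in the supplemented tumours. Of the 5 deficient values, 4 lie below every supplemented value, and deficient 5 lies among them. The difference between supplemented and deficient tumours was 0.49 (95% interval 0.09 to 0.89), or 1.41-fold, with an adjusted p of 0.688 (limma). Its other probe gave 0.26, the deposited values gave 0.42 and normexp correction gave 0.06.

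Ndufs5, an accessory subunit facing the intermembrane space, read 4.55, 4.53, 4.39, 3.85 and 4.67 in the deficient tumours, 4.70, 4.26, 4.95, 4.82 and 4.83 in the adequate tumours and 4.66, 4.74, 4.81, 5.02 and 4.54 in the supplemented tumours. Deficient 4 and adequate 2, both dim arrays, hold its 2 lowest values, and the diets overlap. Its difference was -0.32 between deficient and adequate tumours and 0.36 between supplemented and deficient tumours (limma adjusted p 0.987 and 0.716), and the second turned to -0.07 with normexp correction. Ndufb7, another accessory subunit, with the ETS letters in its promoter, differed by -0.28 and 0.26 in the same comparisons (limma adjusted p 0.987 and 0.766), and Ndufs3, a core subunit, by -0.10 and 0.24.

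The other complex I genes showed no shared order of the diets. Ndufa5 differed by 0.19 and Ndufa11 by -0.22 between supplemented and adequate tumours, both with a limma adjusted p of 1.00, and Ndufa5 turned to -0.48 with normexp correction. Ndufv1 and Ndufs1 carry the flavin and the first iron-sulfur clusters that receive electrons from NADH. Ndufv1 ran from 0.98 to 1.71 in deficient, 1.03 to 1.72 in adequate and 1.07 to 1.67 in supplemented tumours, and Ndufs1 from -0.34 to 0.36, -0.24 to 0.10 and -0.24 to 0.18. The ranges of both genes overlap between the diets. Ndufa6 had a wide range over the 15 tumours (1.36, with deficient 4 lowest at 4.73), and the narrowest range of complex I belonged to Ndufa10l1 (0.65), a copy-like relative of the accessory subunit Ndufa10. Ndufa10l1 differed by 0.21 between deficient and adequate tumours on its brightest probe, and by -0.13 and 0.07 on its other 2 probes, so its sign depends on the probe.

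**Figure D4:**
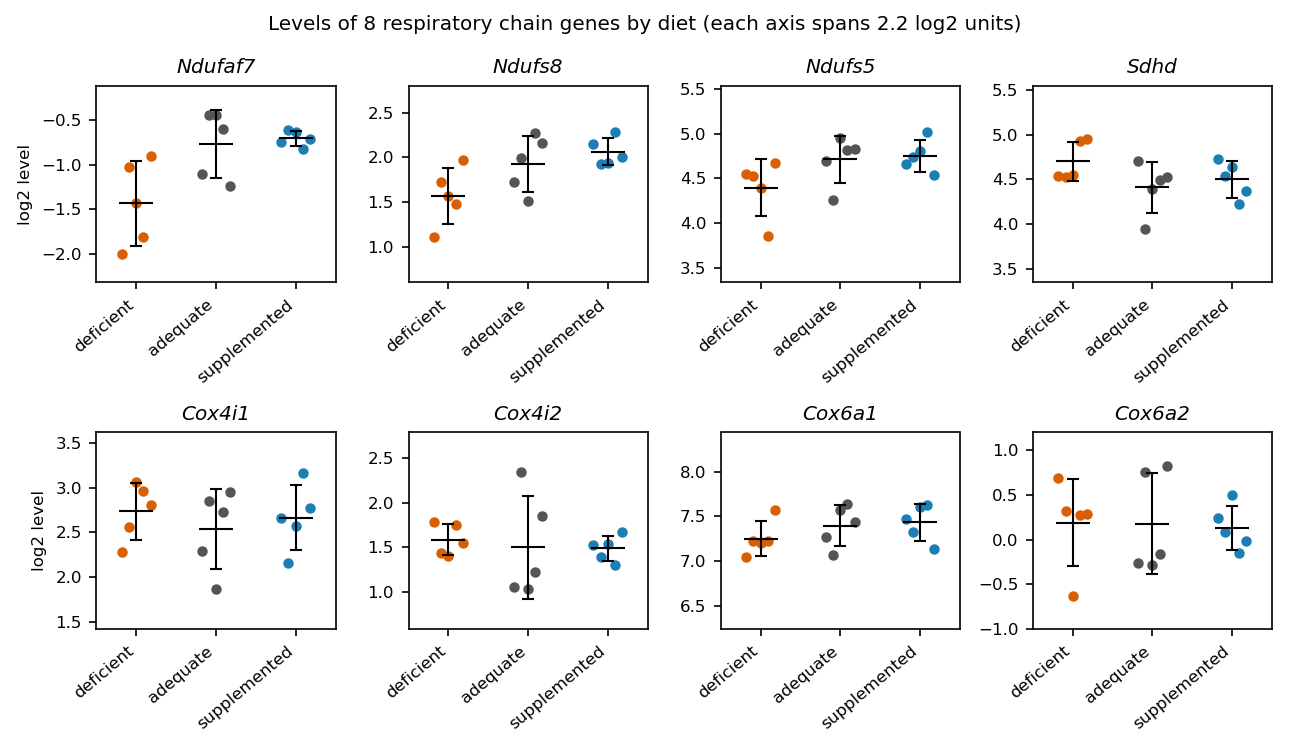
Log2 levels of 8 genes by diet, relative to the array's 75th percentile. Points are tumours, bars are the mean and SD of 5 tumours, and each axis spans the same width but starts at its own level. The deficient and supplemented values of Ndufaf7 do not overlap (highest deficient -0.90, lowest supplemented -0.83), and those of the other 7 genes do.

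Complex II is the citric acid cycle enzyme that oxidises succinate, and all of its subunits are nuclear. Between supplemented and adequate tumours all 4 of its genes were higher, by 0.07 to 0.09, where 49.2% of all named genes were. Their median of 0.08 turned to -0.51 with normexp correction. Between deficient and adequate tumours the 4 genes did not lie on one side. Sdha, the flavoprotein, differed by 0.09 and Sdhb, the iron-sulfur subunit, by -0.12. The membrane anchors Sdhc and Sdhd differed by -0.29 and 0.29. Sdhd read 4.54, 4.53, 4.55, 4.93 and 4.95 in the deficient tumours, 4.70, 3.94, 4.39, 4.49 and 4.53 in the adequate tumours and 4.73, 4.54, 4.64, 4.22 and 4.37 in the supplemented tumours. Deficient 4 and 5 are its 2 highest tumours, adequate 2 is its lowest, and the diets overlap. The limma adjusted p of Sdhd was 0.987 for deficient minus adequate and 0.806 for supplemented minus deficient, where the difference was -0.20. With scaling to the array median it was 0.01, below the 0.24 of all named genes.

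Sdhc had the widest range of the complex, 1.87. It read 2.91, 3.77, 3.71, 2.16 and 3.56 in the deficient tumours, 3.84, 3.22, 3.53, 3.95 and 3.00 in the adequate tumours and 3.39, 3.69, 4.03, 3.55 and 3.28 in the supplemented tumours. Deficient 1 and 4, on the 2 dimmest arrays, are its lowest tumours. Sdhb had the narrowest range, 0.62, and its 5 supplemented values lay between 3.86 and 3.96, within the deficient range of 3.44 to 4.00 and the adequate range of 3.50 to 4.06. The complex's median difference between supplemented and deficient tumours was 0.10, and -0.13 without the 3 dimmest arrays.

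Complex III was the one complex whose measured genes all lay on one side in a comparison with the deficient diet. Its 7 genes were all lower in deficient than in adequate tumours, with differences of -0.33 to -0.03 and a median of -0.15 (0 of 7 passed the limma test, and 55.8% of all named genes were lower). The median stayed below 0 under all 28 alternative fits (-0.24 to -0.05), and within slides it was -0.32, 0.29, -0.26 and -0.03. Of the 7, 2 were higher with brightness as a covariate or without the 3 dimmest arrays, and 3 without adequate 4. Uqcr10, a small subunit, had the largest difference, -0.33. It read 6.98, 7.03, 6.74, 5.85 and 7.03 in the deficient tumours, 7.13, 6.64, 7.32, 7.17 and 7.0 in the adequate tumours and 7.05, 7.18, 7.42, 7.06 and 6.74 in the supplemented tumours. Deficient 4 alone lies far below the rest, and the other 4 deficient values are within the range of the other diets. The limma adjusted p of Uqcr10 was 0.987 in this comparison.

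The Rieske iron-sulfur protein Uqcrfs1, which passes electrons to cytochrome c1, ran from 2.61 (deficient 1) to 3.49 in deficient, 3.03 to 3.62 in adequate and 3.2 to 3.76 in supplemented tumours. The core protein Uqcrc1 differed by -0.24 between supplemented and adequate tumours (limma adjusted p 1.00). It was well above background on 14 of 15 arrays. Uqcrb, which contributes to ubiquinone binding, had the narrowest range of the complex, 0.72, and differed by -0.05, 0.05 and 0.10 in the 3 comparisons. Its dimmest probe gave 0.48 for supplemented minus deficient tumours, against 0.10 and 0.03 on the other 2.

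**Figure D5:**
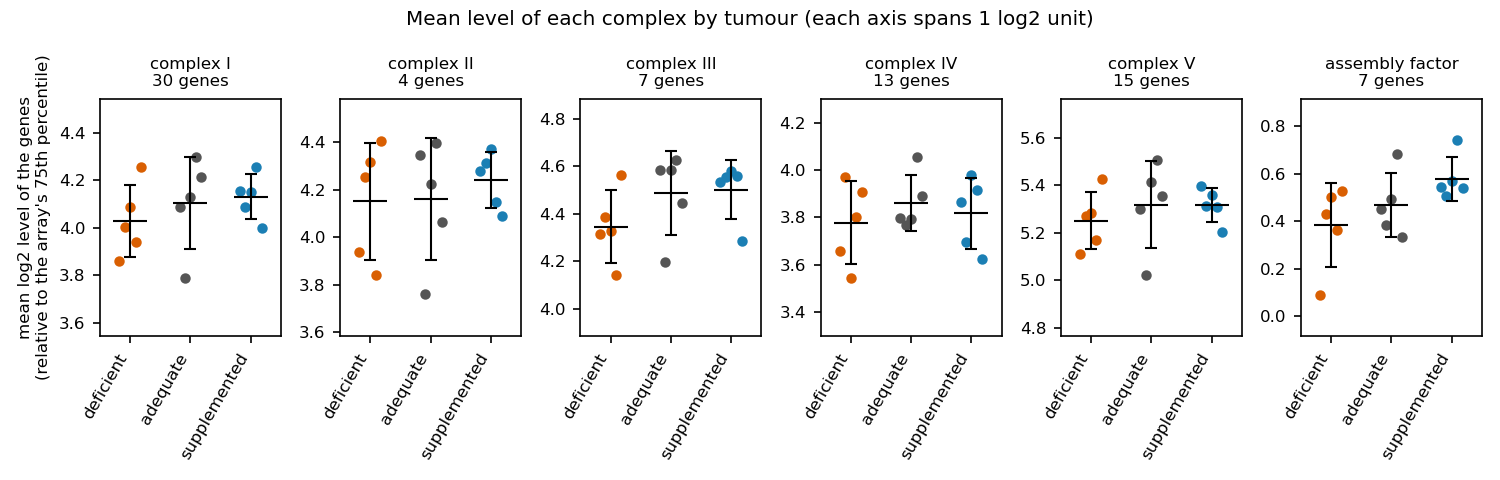
Mean log2 level over the genes of each complex, and of the assembly factors, in each tumour, by diet. Points are tumours and bars are the mean and SD of 5 tumours, and each axis spans 1 log2 unit. In every panel the 3 diets overlap. Among deficient tumours the complex III mean runs from 4.14 to 4.56, and among adequate tumours from 4.20 to 4.63.

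Complex IV holds the chain's tissue isoforms, pairs of genes of which one is widely expressed and the other is tied to a tissue or condition. Of its 13 measured genes, 9 were lower in deficient than in adequate tumours (median -0.10). Cox4i1, the common subunit 4 isoform, read 2.28, 2.56, 3.06, 2.97 and 2.81 in the deficient tumours, 2.29, 2.85, 1.87, 2.73 and 2.95 in the adequate tumours and 2.66, 2.16, 2.57, 3.17 and 2.77 in the supplemented tumours. Cox4i2, the isoform known from lung, vessel wall and low oxygen, read 1.78, 1.44, 1.4, 1.75 and 1.55 in the deficient tumours, 1.06, 2.34, 1.03, 1.22 and 1.85 in the adequate tumours and 1.53, 1.39, 1.54, 1.30 and 1.67 in the supplemented tumours. Both genes span a wider range among adequate tumours than the diets lie apart. Adequate 2 was the highest tumour of Cox4i2 while it was the lowest tumour of 24 other members. The summed level of pericyte and smooth muscle markers (7 of 7 listed genes measured) was 43.7 in adequate 2 and 38.7 to 59.0 in the other 4 adequate tumours. The median deviation of these markers from their own medians was 0.45 in adequate 2 and -0.58 to 0.53 in the other 4. The part of these cells in Cox4i2 was not tested.

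The muscle isoform Cox6a2 was well above background on all 15 arrays. It read 0.69, 0.32, -0.63, 0.28 and 0.29 in the deficient tumours, -0.26, 0.76, -0.28, -0.16 and 0.83 in the adequate tumours and 0.24, 0.08, 0.50, -0.15 and -0.01 in the supplemented tumours. Adequate 2 and 5 are its highest tumours and deficient 3 its lowest, and the diets overlap. Of 17 listed skeletal muscle genes 6 were measured, and 9 others with a probe, among them Ckm, Myh1, Myh4 and Casq1, did not reach 5 arrays well above background. The summed level of the 6 was 3.85 to 17.4 in deficient, 2.89 to 5.95 in adequate and 3.72 to 11.4 in supplemented tumours, and the part of muscle in Cox6a2 was not tested. The widely expressed Cox6a1 had the narrowest range of the complex, 0.60, and read 7.04 to 7.57, 7.07 to 7.64 and 7.13 to 7.63 in the 3 diets in the order deficient, adequate and supplemented.

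Cox6b2, the testis isoform of subunit 6B, was the most variable member and the one nearest the detection limit, with 6 arrays well above background (2 deficient, 3 adequate and 1 supplemented). It read -2.98, -0.65, -4.24, -0.98 and -2.32 in the deficient tumours, -1.89, -1.62, -0.84, -0.85 and -2.77 in the adequate tumours and -1.92, -3.77, -2.02, -1.46 and -3.83 in the supplemented tumours. High and low values occur in every diet. Its difference between supplemented and adequate tumours was -1.0 with a 95% interval of -2.38 to 0.37 (limma adjusted p 1.00), and normexp correction turned it to 0.20. Just outside the limit of 5 arrays lay Cox6c-ps1 with 4 arrays and the muscle isoform Cox8b with 3, while Ndufs4, Uqcrq and Cox8c reached it on 0 arrays. Genes such as Cox6b1, Cox7a1 and Ndufa4l2 had no matched probe and were not analysed here.

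Of the remaining complex IV genes, Cox8a, whose promoter carries the ETS letters at both places shown, differed by -0.20 between supplemented and adequate tumours, and the matrix-side subunit Cox5a by 0.20, which turned to -0.45 with normexp correction. Cox7a2 ran from 5.02 to 5.56, 5.00 to 5.85 and 5.21 to 5.48 in deficient, adequate and supplemented tumours. Cox7a2l, which joins complexes III and IV into supercomplexes, ran from 3.41 to 4.11, 3.42 to 3.62 and 3.51 to 3.68, with deficient 3 as its one high tumour, and had the smallest SD of all members (0.17). Cox7c varied more, with an SD of 0.48 and a range of 1.76, and deficient 4 was its lowest tumour at 1.63. Ndufa4, grouped with complex I by its symbol but now counted as a subunit of complex IV, ran from 5.26 to 5.71, 5.11 to 6.09 and 5.54 to 5.91. For these genes the diets overlap in each comparison.

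Complex V makes ATP. Of its 15 measured genes, 13 were lower in deficient than in adequate tumours, yet by little: the median was -0.06 and the largest difference, of the catalytic beta subunit Atp5f1b, was -0.29. Atp5f1b read 1.87, 2.94, 3.21, 2.92 and 3.09 in the deficient tumours, 2.97, 3.09, 2.77, 3.56 and 3.07 in the adequate tumours and 3.17, 2.77, 2.69, 3.69 and 3.19 in the supplemented tumours. Deficient 1, on the dimmest array, lies more than 1 log2 unit below the next deficient tumour, and the other 4 lie among the adequate values. The alpha subunit Atp5f1a differed by -0.06, 0.03 and 0.08 in the 3 comparisons.

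The inhibitor Atp5if1, which stops the enzyme from running backwards, read 6.07, 5.90, 5.86, 5.39 and 5.95 in the deficient tumours, 6.13, 5.33, 6.15, 6.06 and 5.73 in the adequate tumours and 5.72, 6.03, 5.95, 4.85 and 5.55 in the supplemented tumours. Supplemented 4 is its lowest tumour, although that tumour had 43 of 69 subunit genes above their medians. Its differences from the adequate and deficient tumours were -0.26 and -0.22 (limma adjusted p 1.00 and 0.848), and the second was -0.02 without supplemented 4. Atp5f1e, the epsilon subunit of the rotor, had a range of 1.48, with deficient 4 lowest at 6.43, and Atp5me, a membrane subunit whose promoter holds NRF1 and ETS letters, had the narrowest range, 0.60. The stalk subunits Atp5po and Atp5pf differed by -0.11 and -0.14 between supplemented and deficient tumours. With scaling to the array median the values were 0.10 and 0.08, still below the 0.24 of all named genes. Atp5pf turned without deficient 3 (0.03), its highest tumour at 5.49.

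The assembly factors help build complexes without staying in them. Ndufaf7, 1 of them, had the lowest unadjusted limma p of the 76 members in both comparisons with the deficient diet. Ndufaf7 is a methyltransferase that acts early in the assembly of complex I. It read -2.0, -1.03, -1.43, -1.81 and -0.90 in the deficient tumours, -1.11, -0.44, -0.45, -0.60 and -1.24 in the adequate tumours and -0.75, -0.61, -0.64, -0.83 and -0.71 in the supplemented tumours. Every supplemented tumour lies above every deficient tumour, and the adequate tumours overlap both. Among the 76 members only Ndufaf7 was higher without overlap, a share near the 1.17% of all named genes. The difference between supplemented and deficient tumours was 0.72 (95% interval 0.24 to 1.20), or 1.65-fold, with an unadjusted p of 0.00559 and an adjusted p of 0.661 (limma). It was 0.18 to 1.25 within the 4 slides and 0.67 with slide as a block.

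Ndufaf7 is a dim probe, and its size depended on the processing. It was well above background in 3 of 5 deficient tumours and in all tumours of the other diets. The difference between supplemented and deficient tumours was 0.29 in the deposited values, 0.29 with normexp correction and 0.41 without the 3 dimmest arrays, 2 of which are its lowest tumours. It stayed above 0 under all 27 alternatives that could give it, and its adjusted p was at or above 0.489 in each (limma). Between deficient and adequate tumours Ndufaf7 differed by -0.67 (limma unadjusted p 0.00938, adjusted p 0.987), and by -0.13 with normexp correction.

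Ndufaf5 modifies another complex I core subunit and has the NRF1 letters just before its start. It ran from 2.31 to 2.69 in deficient, 1.91 to 2.54 in adequate and 2.29 to 2.68 in supplemented tumours, and differed from adequate by 0.24 in both other diets (limma adjusted p 0.987 and 1.00), with adequate 2 and 3 as its lowest tumours. Ndufaf4 differed by 0.22 between supplemented and adequate tumours, on all 3 of its probes by 0.16 to 0.22. Both turned with normexp correction, to -0.25 and -0.14. Ndufaf1 had a range of 1.49, from deficient 1 at -2.23 to deficient 3 at -0.74. Sdhaf2, which attaches the flavin to Sdha, had the narrowest range of the factors (0.75), and its 2 probes gave 0.16 and -0.0006 for deficient minus adequate tumours. All 7 factors were higher in supplemented than in adequate tumours by 0.03 to 0.24, where 49.2% of all named genes were, but 3 of 7 were with normexp correction and 4 of 7 without supplemented 4. None of the 7 passed the limma test.

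Genes around the chain were read from 6 lists, and no gene of any of them passed the limma test in any comparison. Of 16 measured electron carrier genes (cytochrome c, ubiquinone synthesis and electron transfer flavoprotein), 9 were lower in deficient than in adequate tumours, with a median of -0.11 that turned to 0.02 without deficient 4. Etfdh, which feeds electrons from fatty acid oxidation to ubiquinone, differed by 0.36 in that comparison (limma adjusted p 0.987), and the testis cytochrome Cyct by -1.0 between supplemented and deficient tumours (limma adjusted p 0.729), with 5 arrays well above background. Of 31 assembly factors outside the symbol rule, 22 were higher in supplemented than in deficient tumours (median 0.09, and -0.02 with normexp correction). Uqcc1, of complex III assembly, differed by -0.64 and Atpaf1, of complex V assembly, by 0.46 between deficient and adequate tumours (limma adjusted p 0.987 for both).

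Regulators of the chain's transcription showed medians of 0.01, 0.08 and 0.07 in the 3 comparisons over 20 measured genes. Pprc1, a PGC-1 family coactivator, read 1.37, 1.59, 1.66, 1.23 and 1.63 in the deficient tumours, 1.46, 0.92, 1.59, 1.45 and 1.75 in the adequate tumours and 1.99, 1.63, 1.68, 1.88 and 2.11 in the supplemented tumours. The supplemented tumours 1, 4 and 5 lie above every tumour of the other diets. Pprc1 differed by 0.43 and Mterf3, a regulator of mitochondrial transcription, by 0.36 between supplemented and adequate tumours (limma adjusted p 1.00 for both), and both turned with normexp correction (-0.03 and -0.15). Of 65 mitochondrial ribosomal protein genes, 44 were higher in supplemented than in deficient tumours (median 0.06, and -0.21 with normexp correction), among them Mrpl49 by 0.43 and Mrpl17 by 0.32 (limma adjusted p 0.701 and 0.703).

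Of the 22 genes of pyruvate dehydrogenase and the citric acid cycle, 17 were higher in supplemented than in deficient tumours, with a median of 0.17 against 0.03 over all named genes and -0.21 with normexp correction. Dlat, the acetyltransferase core of pyruvate dehydrogenase, read 0.46, 0.54, 0.71, 0.85 and 0.81 in the deficient tumours, 1.03, 0.66, 1.12, 1.18 and 0.73 in the adequate tumours and 1.13, 1.38, 1.23, 1.52 and 1.38 in the supplemented tumours. No deficient value reaches a supplemented one, as was so for 98 of 8381 named genes (1.17%) that were higher without overlap. The difference was 0.65 (95% interval 0.33 to 0.98), and 0.23 with normexp correction. Its unadjusted p of 0.00062 (limma, adjusted p 0.636) was lower than the unadjusted p of any respiratory chain gene. Pdhb, a subunit of the same enzyme, differed by 0.35 (limma adjusted p 0.703), also without overlap (0.72 to 1.07 in deficient and 1.15 to 1.35 in supplemented tumours), and turned to -0.01 with normexp correction.

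Of 26 glycolysis and hypoxia genes, 19 were lower in deficient than in adequate tumours, with a median of -0.22 against -0.03 over all named genes and -0.08 over the respiratory chain genes. That median was -0.36 without deficient 4 and -0.10 without deficient 1. Pfkm, a phosphofructokinase, differed by -0.36, and Epas1, the hypoxia factor HIF-2 alpha that is strong in endothelium, by 0.72 (limma adjusted p 0.987 for both). Deficient 1 was the highest tumour of Epas1 at 1.42.

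Markers of other cells differed between tumours in ways that touch these comparisons. Summed levels of 5 measured red cell genes were 56.6 to 306 in deficient, 12 to 66.0 in adequate and 12.5 to 29.3 in supplemented tumours, and those of 4 measured adipocyte genes 2.95 to 82.1, 4.49 to 11.7 and 3.45 to 32.1. Summed levels of 7 secretory epithelium genes were 142 to 602, 28.4 to 439 and 86.3 to 491. Of these 7 genes, 6 were higher in deficient (median 0.93) and 7 in supplemented (median 0.81) than in adequate tumours, and none passed the limma test. Deficient 1, with 11 of 69 subunit genes above their medians, was highest for red cell and adipocyte genes (306 and 82.1). Adequate 2, with 9 of 69, had 52.0 and 6.72, and supplemented 5, with 14 of 69, had 25.2 and 32.1. The defining brown fat gene Ucp1 did not reach 5 arrays well above background. The part of these cells in the members' values was not tested.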

How the data were processed

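RNA of 15 tumours was hybridised to Agilent 1-colour whole-genome rat arrays, 1 array per tumour. The deposited processed signal is an intensity that Feature Extraction 11.5.1.1 had background-subtracted and detrended, per the file headers (version 15.5 per the submitters' processing notes). The authors' deposited value table holds log2 values of 30002 probes with array medians of 7.09 to 7.10, and their normalization is not given in the sources used here.

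From the processed signal, log2 was taken and each array's 75th percentile over non-control spots subtracted. Outlier spots were left out (39 missing values) and spots of a probe averaged. A probe was tested if 5 or more of 15 arrays had it well above background (21014 of 41012). Probes were named by accession through RefSeq's GRCr8 gene table (17502, or 42.7%), and a gene was read from its brightest tested probe. Of the members, 9 had several tested probes. A probe may also bind transcripts of near-identical copies, and this was not tested. limma 3.58.1 (R 4.3.3) fitted all 15 arrays by diet with 12 residual degrees of freedom. Tests were two-sided and adjusted by Benjamini-Hochberg over all tested probes, with calls at 0.05, and were tested on simulated data.

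Named members were, in each comparison, the 4 with the smallest p in each direction, in each complex the 2 with the widest and the 1 with the smallest range, and listed isoforms, core subunits and the inhibitor, with 2 genes from each other list. The result of 1 gene that this rule picks is not reported here. The members and lists were chosen with earlier results of these data known. Alternatives were array-median scaling, quantile normalization, normexp (offset 50) with 75th-percentile scaling, the deposited values, other filters, mean over probes, slide or replicate number as a block, brightness as a covariate, array weights, leaving out the 3 dimmest arrays, and leaving out each array. Normexp used spot medians, because the scanner files give no mean signal. Normexp followed by quantile normalization was added after seeing the data.

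Replicate numbers did not pair the tumours: over 15 same-number pairs, deviations from the diet means correlated between -0.28 and 0.22. Correlations between arrays were 0.91 to 0.98, and no 2 arrays held the same values.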

Additional observations from a re-analysis of the deposited data

Results flagged for a closer look

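Within a diet, single tumours stood apart by Dixon's criterion in 11 of 183 groups of 5 values examined, where chance gives about 1 in 20. The gap to the nearest tumour decided each case, and no cause was tested.

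Deficient 1 was lowest for Atp5f1b at 1.87 (next 2.92), for Uqcrfs1 at 2.61 (next 3.25) and for the mitochondrial ribosomal gene Mrpl49 at -0.53 (next -0.27). Deficient 4 was lowest for Uqcr10 at 5.85 (next 6.74) and for Atp5f1e at 6.43 (next 7.52). Adequate 2 was lowest for Ndufa6 at 5.19 (next 5.76) and for Atp5po at 5.88 (next 6.31). These 3 tumours are on the 3 dimmest arrays. Deficient 3 was highest for Atp5pf at 5.49 (next 4.83) and for Etfdh at 1.32 (next 0.80). Among supplemented tumours, replicate 5 was lowest for the mean of complex III at 4.28 (next 4.53), and replicate 4 was highest for the mean of the assembly factors at 0.74 (next 0.57).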

How the results depend on the processing

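No respiratory chain gene passed the limma test under any of the 28 alternatives, with lowest adjusted p-values of 0.839, 0.330 and 0.489 for deficient minus adequate, supplemented minus adequate and supplemented minus deficient. Over all probes, array weights gave 1 call for supplemented minus deficient (limma adjusted p 0.0194) and 1 over any diet (0.0242), and leaving out 1 array each gave 0 to 1 for supplemented minus deficient, with the 1 call without supplemented 1. Neither call was a member. Normexp with 75th-percentile scaling moved the complex I median of deficient minus adequate to -0.24. It moved the medians of supplemented minus adequate to -0.56 (all members), -0.60 (complex I), -0.51 (II), -0.52 (III), -0.45 (IV) and -0.66 (V), and those of supplemented minus deficient to -0.34, -0.38, -0.41, -0.24, -0.30 and -0.42 in the same order. With normexp followed by quantile normalization the members split 25 to 51, 49 to 27 and 57 to 19, close to the reported 22 to 54, 50 to 26 and 55 to 21. The cause was not tested. Single genes turned with normexp and the percentile: for supplemented minus adequate Ndufaf5 (-0.25), Ndufaf4 (-0.14), Ndufa5 (-0.48), Cox5a (-0.45), Cox6b2 (0.20), Pprc1 (-0.0296) and Mterf3 (-0.15), and for supplemented minus deficient Ndufs5 (-0.0699), Ndufs3 (-0.40), Cyct (0.15), Pdhb (-0.0123) and Mrpl17 (-0.14). Array-median scaling moved supplemented minus deficient to 0.29 (all members), 0.28 (complex I) and 0.31 (complex II), and turned Sdhd (0.0116), Atp5po (0.10) and Atp5pf (0.0757), as it raised the median of all named genes to 0.24. Without the 3 dimmest arrays the complex II median was -0.13. Leaving out 1 array each gave -0.195 to 0.0332 for Atp5pf in supplemented minus deficient tumours, positive without deficient 3. With the replicate block the members' medians were -0.08, 0.04 and 0.08, as without it, no call changed, and 4 of 15 samples correlated best with their own number. Dim probes such as Ndufaf7 and Cox6b2 are limited by signal over background.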
